A study of Mus musculus with 24 samples.

Results

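Transcripts of 10 genes that coat lipid droplets or control the release of fat from them were followed in livers of male mice fasted for 24 hours. The 10 genes, Plin2, Plin4, Plin5, Cidea, Cidec, Fitm1, G0s2, Pnpla2, Hilpda and Mgll, were taken by symbol from a table of read counts for 35275 genes, and each symbol matched 1 row. The table holds 24 liver libraries of C57BL/6 mice, 8 to 10 weeks of age, with 4 libraries in each of 6 genotypes. Control livers, labelled wild type, came from littermates with loxP-flanked Tsc1 and Cpt2 alleles according to the study's methods. Tsc1 L-/- and Cpt2 L-/- livers lack Tsc1 or Cpt2 where Albumin-Cre is expressed, which is in hepatocytes, and DKO livers (labelled Tsc1Cpt2 L-/-) lack both. The labels also give Ppara KO livers and livers with loss of both Cpt2 and Ppara, called Cpt2 Ppara KO here. For these the sources used here do not describe how the Ppara allele was made or whether it was lost outside the liver. They also do not say whether these mice were bred with the controls, so a difference between cohorts cannot be told apart from loss of Ppara. Every group, controls included, was chow-fed and then fasted. The labels do not say that replicates of a group came from separate animals, so p-values measure the spread between these libraries.

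Fat is stored in hepatocytes as a core of triglyceride within a single layer of phospholipid, and the perilipins, CIDE proteins and enzymes that sit on this surface decide how fast the core grows or is broken down. Adipose triglyceride lipase, the product of Pnpla2, removes the first fatty acid from triglyceride and is held back by G0s2 and Hilpda, while monoacylglycerol lipase, the product of Mgll, acts at the last step. The fatty acids that are released can be oxidized in mitochondria, which needs Cpt2, and can act as ligands of Pparα, a nuclear receptor that raises transcription of fat-handling genes in fasting. Tsc1 restrains mTorc1, a kinase complex that drives anabolic growth. The comparisons ask what loss of fatty acid oxidation, activation of mTorc1 and loss of Pparα each do to the transcripts of the droplet surface.

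Total counts were 14470968 to 20371204 per library. Levels are given as CPM, counts scaled to a common library size with the TMM factors of edgeR, as mean ± SD of 4 libraries, and levels of different genes are compared by the deposited FPKM, which also divides by gene length. Tests are edgeR's quasi-likelihood test with Benjamini-Hochberg adjustment over all genes tested, and a gene with an adjusted p under 0.05 is said to have risen or fallen. Of the 10 genes, 9 passed the filter on low counts in both fits, and Cidea did not. Tsc1 was lower in Tsc1 L-/- livers (log2 difference -0.65, edgeR adjusted p = 0.00491) and in DKO livers (-1.21, edgeR adjusted p = 2.11e-06), and Ppara fell by 3.23 on the log2 scale in Ppara KO livers, whereas counts over the whole Cpt2 gene do not check the Cpt2 L-/- label (log2 fold change -0.11 against control, 95% interval -0.41 to 0.19). The summed level of 6 hepatocyte markers was 66410 to 81760 CPM in control and 30950 to 37380 CPM in DKO livers, with Cpt2 L-/- livers between 36030 and 61660 CPM. Most of that fall was in Alb, with a mean of 43410 CPM in control and 12720 CPM in DKO livers, while Ttr had 2890 and 2597 CPM and Hnf4a 1161 and 803 CPM. Macrophage markers, 7 in all, summed to 107 to 168 CPM in control, 162 to 322 CPM in DKO and 221 to 240 CPM in Cpt2 Ppara KO livers. In DKO livers 2 of the 7 had a higher mean than in control, Cd68 (93.6 against 8.44 CPM) and Gpnmb (95.4 against 1.70 CPM). Cd68 and Gpnmb were also above every control library in Cpt2 L-/- (means 34.9 and 20.4 CPM) and Cpt2 Ppara KO livers (33.1 and 26.0 CPM). The other 5 had a lower mean in DKO than in control livers, among them the Kupffer cell genes Clec4f (45.8 against 87.0 CPM), Vsig4 and Timd4. The 6 markers of stellate cells, which store vitamin A, summed to 248 to 329 CPM in control, 160 to 239 CPM in Tsc1 L-/-, 154 to 193 CPM in DKO and 173 to 223 CPM in Cpt2 Ppara KO livers. The 4 endothelial markers summed to 239 to 267 CPM in control, 142 to 231 CPM in Ppara KO and 110 to 205 CPM in Cpt2 Ppara KO livers. The 4 cholangiocyte markers summed to 4.74 to 9.86 CPM in control and 12.6 to 28.9 CPM in Ppara KO livers, mainly through Sox9 (mean 3.23 and 16.1 CPM), whereas Krt19 (1.57 and 1.14 CPM) and Epcam (2.01 and 1.75 CPM) had a lower mean there. The part of these differences in the results was not tested. In bulk tissue, fewer cells of a type and less RNA per cell cannot be told apart.

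The library labelled Cpt2 Ppara KO replicate 1 stood apart from its group. It held Ppara at 91.9 CPM and Cpt2 at 126 CPM, against 26.2 to 46.2 CPM and 31.7 to 39.1 CPM in the other 3 libraries. Cyp4a14, a fatty acid omega-hydroxylase and a classical Pparα target, was at 3251 CPM there and at 185 to 294 CPM in the other 3. Tsc1 was at 24.3 CPM in it and at 42.4 to 50.6 CPM in the other 3, and its values of Tsc1 and Cpt2 lay within the Tsc1 L-/- ranges of 18.0 to 28.6 CPM and 118 to 172 CPM. Its Ppara level, though, was below that of all 16 libraries of genotypes with Ppara, the lowest of which had 137 CPM, and Plin2 (2781 CPM), Plin5 (291 CPM) and Cidec (513 CPM) were far above the Tsc1 L-/- ranges given below. The calls and counts of called genes that rest on this group are therefore given with and without this library.

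In GRCm38 Plin2 lies on chr4 from 86648386 to 86670060, Cidec on chr6 from 113424634 to 113435760 and G0s2 on chr1 from 193272161 to 193273188, all on the minus strand. On the plus strand are Cidea on chr18 from 67343564 to 67367794, Fitm1 on chr14 from 55575617 to 55576952, Pnpla2 on chr7 from 141455198 to 141460743, and, both on chr6, Hilpda from 29272488 to 29275446 and Mgll from 88724412 to 88828360.

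Plin2 made up the largest share of these transcripts in every group. By FPKM it took 41.1% ± 2.94 of the sum over the 10 genes in control livers, 64.3% ± 3.36 in Cpt2 L-/- livers and 67.6% ± 12.6 in Ppara KO livers (SD, n = 4). G0s2 followed in control livers with 20.9% ± 6.78, but had 3.81% ± 1.72 in Cpt2 L-/- and 2.5% ± 0.286 in Ppara KO livers. Cidec took 4.19% ± 1.43 of the sum in control, 12.1% ± 2.64 in Cpt2 L-/- and 12.5% ± 1.22 in DKO livers, and no test was run on these shares. The sum itself was 613 ± 126 FPKM in control, 413 ± 122 in Tsc1 L-/-, 2682 ± 189 in Cpt2 L-/-, 2476 ± 525 in DKO, 656 ± 239 in Ppara KO and 1137 ± 650 FPKM in Cpt2 Ppara KO livers, of which Cpt2 Ppara KO replicate 1 alone had 2081 FPKM (822 ± 197 in the other 3).

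**Figure D1:**
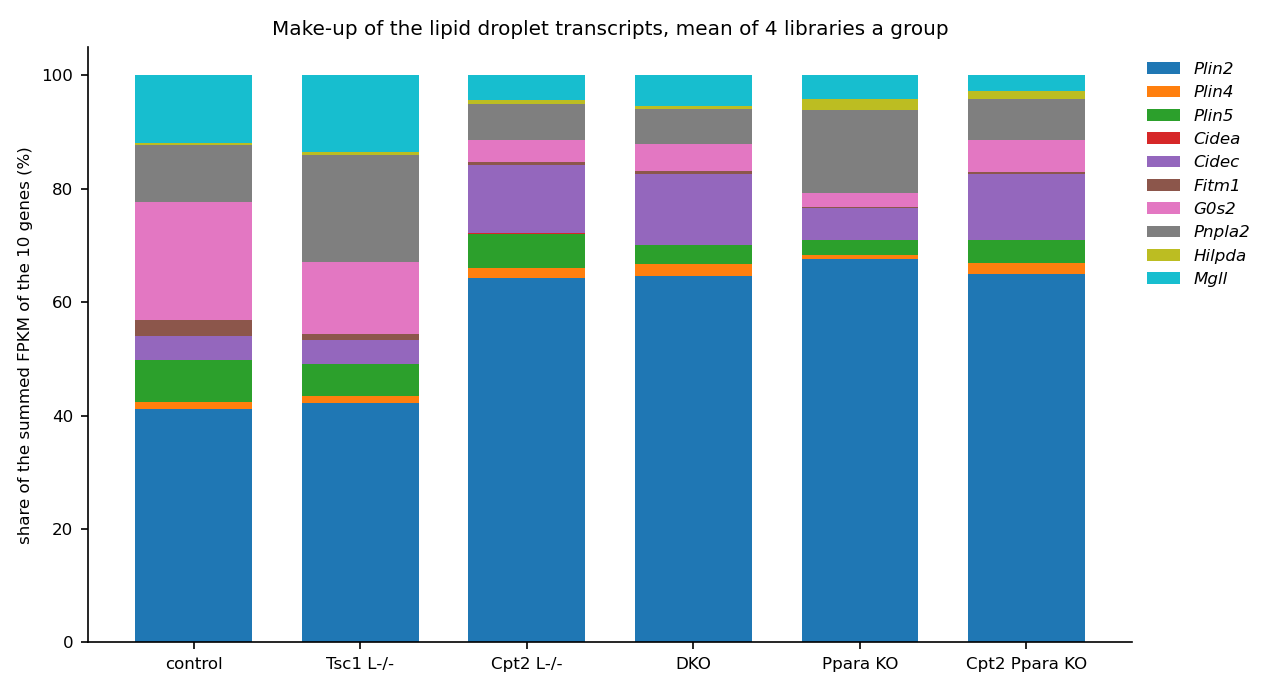
Share of each gene in the summed FPKM of the 10 genes (vertical axis, percent), as stacked bars of the mean of 4 libraries for each genotype. Plin2 takes 41.1% in control and 64.3% in Cpt2 L-/- livers, while the G0s2 share goes from 20.9% to 3.81%.

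**Figure D2:**
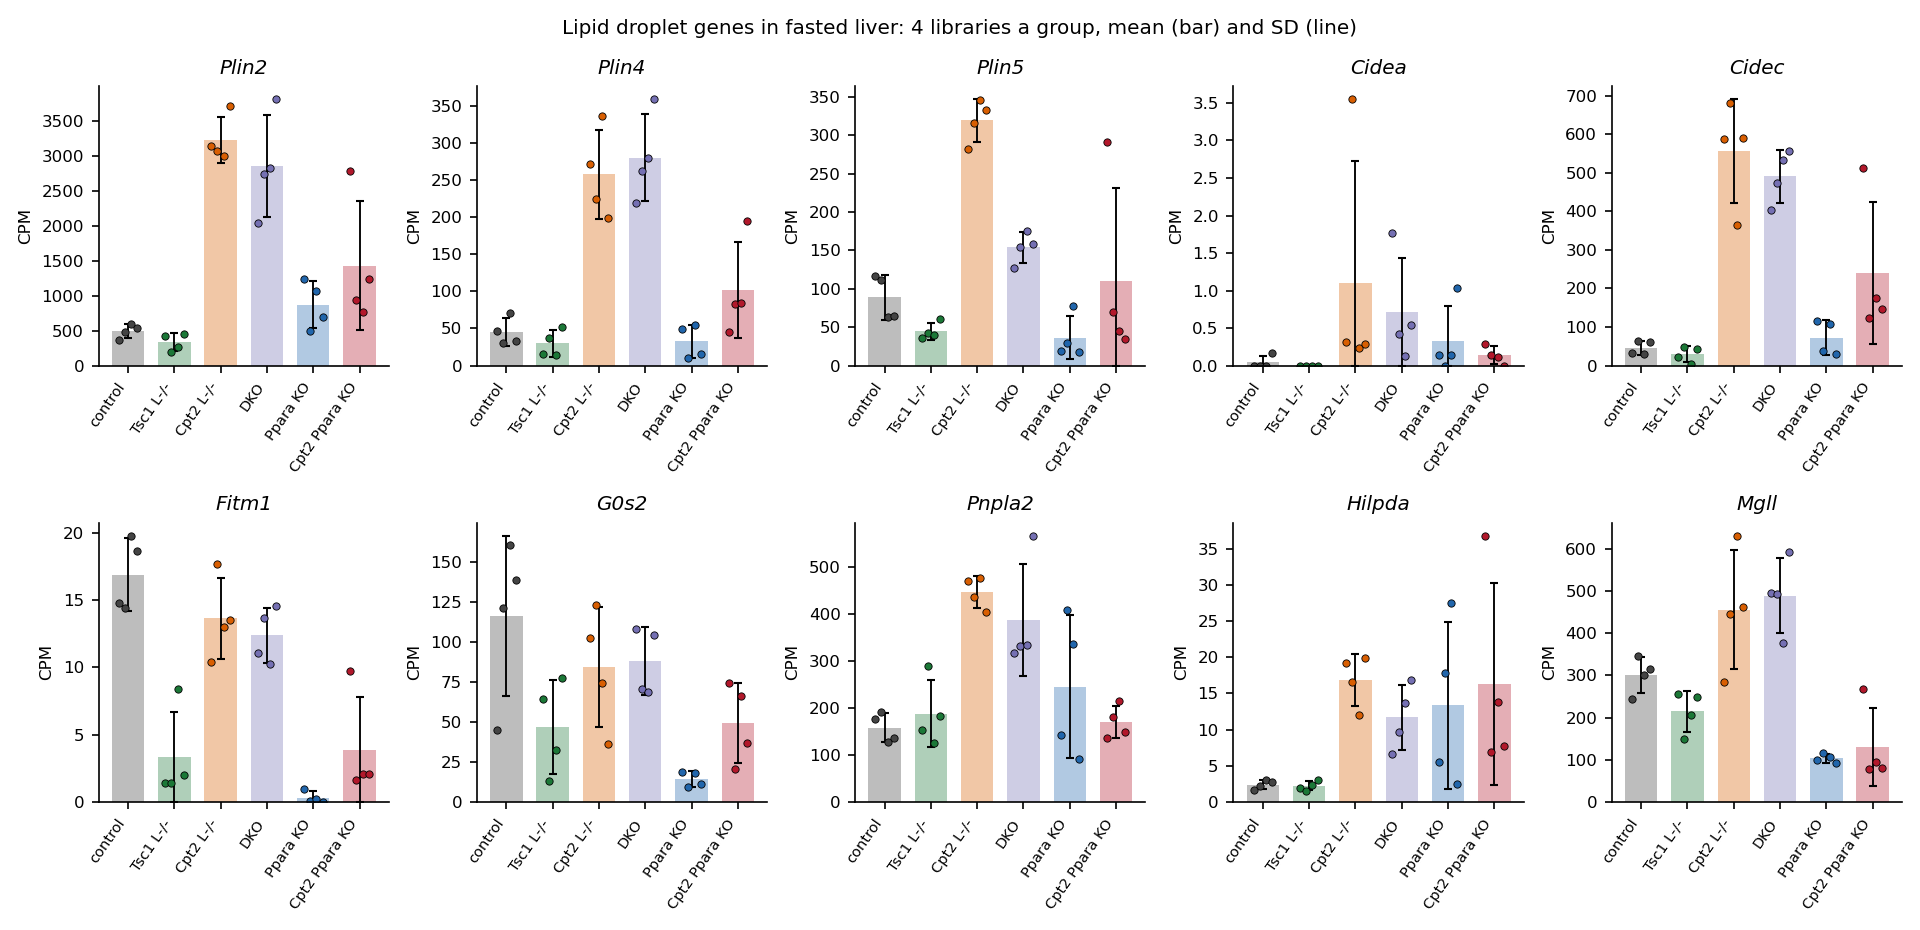
Level of each gene (vertical axis, CPM, from 0) in 6 genotypes. Points are libraries, bars the mean of 4 and lines the SD, drawn down to 0 at most; Plin2, Plin4, Plin5, Cidec, Pnpla2 and Hilpda are higher in every Cpt2 L-/- and DKO library than in every control library, and Fitm1 is lowest in Ppara KO livers.

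Among the coat proteins, Plin2 is the perilipin found on droplets of most cells, Plin5 is typical of tissues that oxidize fat and tethers droplets to mitochondria, and Plin4 is best known from white fat and muscle. Plin2 was at 362, 473, 599 and 542 CPM in the 4 control libraries and at 3135, 3070, 3002 and 3717 CPM in the Cpt2 L-/- libraries. The DKO libraries held 2040, 2739, 2821 and 3807 CPM. Cpt2 L-/- and DKO livers lay far above control with no overlap, and they overlapped with each other. Plin2 rose 6.42-fold with loss of Cpt2 (log2 fold change 2.68, standard error 0.26, edgeR adjusted p = 1.33e-06) and 5.74-fold in DKO livers (edgeR adjusted p = 1.4e-06). In Tsc1 L-/- livers it was at 426, 188, 261 and 452 CPM, which overlapped with control (log2 fold change -0.58, edgeR adjusted p = 0.18).

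Plin4 was at 46.4, 29.9, 70.9 and 32.6 CPM in control libraries and at 271, 225, 336 and 199 CPM in Cpt2 L-/- libraries. In DKO libraries it was at 218, 262, 280 and 359 CPM, overlapping with the Cpt2 L-/- values. It rose 5.63-fold in Cpt2 L-/- livers (edgeR adjusted p = 0.000374) and 6.18-fold in DKO livers (edgeR adjusted p = 0.000208).

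Plin5 was lower with loss of Tsc1 on both backgrounds. Its control libraries were at 116, 112, 62.9 and 63.9 CPM and its Tsc1 L-/- libraries at 35.7, 41.8, 40.1 and 60.6 CPM. All Tsc1 L-/- libraries were below all control libraries, as for 5.2% of all genes tested, and Plin5 fell by 1.0 on the log2 scale (standard error 0.21, edgeR adjusted p = 0.00689). Cpt2 L-/- libraries were at 282, 316, 346 and 333 CPM, 3.52-fold above control (edgeR adjusted p = 7.34e-06). DKO libraries were at 127, 155, 175 and 159 CPM, below every Cpt2 L-/- library and above every control library. Against Cpt2 L-/- livers Plin5 was 2.05-fold lower in DKO livers (log2 fold change -1.03, standard error 0.20, edgeR adjusted p = 0.0025), and against control it was 1.72-fold higher (edgeR adjusted p = 0.00609). The interaction of Tsc1 and Cpt2 loss was -0.04 for Plin5 (95% interval -0.64 to 0.57, edgeR adjusted p = 0.966). In a fit of all 24 libraries the Plin5 difference was not called for Tsc1 L-/- against control (edgeR adjusted p = 0.405), DKO against Cpt2 L-/- (0.22) or DKO against control (0.295).

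Plin4 and Plin5 are neighbours on the minus strand of chromosome 17 in the mouse build GRCm38, with Plin4 from 56100591 to 56109803, Plin5 from 56111601 to 56117596 and 1797 bases between them. Of the pair, Plin5 was the one called in DKO against Cpt2 L-/- livers. The ratio of Plin4 to Plin5, taken by FPKM within each library, was 0.552 to 0.779 in the DKO group, above its range of 0.206 to 0.335 in the Cpt2 L-/- group (exact permutation test, two-sided, p = 0.0286, which is the smallest that 4 against 4 can give). After adjustment over 16 ratio comparisons, which were chosen after the values were seen, p was 0.114. The end of Plin4 overlaps Hdgfrp2 on the opposite strand by a few bases. The libraries were made with a stranded kit, but the strand setting of the counting is not given in the sources used here.

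The sequence before the start of Plin2, the most abundant of these transcripts, of the neighbours Plin4 and Plin5, and of Fitm1, the gene of the 9 tested that differed most between Ppara KO and control livers, is shown with capitals for AGGTCA, the core site of nuclear receptors such as Pparα, on either strand. The sequences are from RefSeq (GRCm38.p6), each written 5′ to 3′ on the strand of its gene from position -250 relative to the start, and end before the first base of the gene in the count table's coordinates.
Plin2, chr4:86670061-86670309 (minus strand): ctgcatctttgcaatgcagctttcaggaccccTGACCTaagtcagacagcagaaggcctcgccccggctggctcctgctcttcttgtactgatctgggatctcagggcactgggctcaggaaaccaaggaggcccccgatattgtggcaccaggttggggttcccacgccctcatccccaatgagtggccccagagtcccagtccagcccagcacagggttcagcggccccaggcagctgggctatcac
Plin4, chr17:56109804-56110032 (minus strand): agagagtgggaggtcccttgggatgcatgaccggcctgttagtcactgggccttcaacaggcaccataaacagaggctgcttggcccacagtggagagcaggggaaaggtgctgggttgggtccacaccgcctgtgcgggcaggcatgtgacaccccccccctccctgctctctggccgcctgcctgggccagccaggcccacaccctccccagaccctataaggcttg
Plin5, chr17:56117597-56117798 (minus strand): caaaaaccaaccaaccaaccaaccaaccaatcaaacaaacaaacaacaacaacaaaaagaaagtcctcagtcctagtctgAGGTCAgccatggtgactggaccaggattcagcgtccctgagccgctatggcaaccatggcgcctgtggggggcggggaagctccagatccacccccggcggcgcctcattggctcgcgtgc
Fitm1, chr14:55575424-55575616 (plus strand): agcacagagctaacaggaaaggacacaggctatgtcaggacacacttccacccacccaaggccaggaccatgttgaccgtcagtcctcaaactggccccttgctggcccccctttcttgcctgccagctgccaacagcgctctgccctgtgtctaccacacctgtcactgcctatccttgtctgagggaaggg
Plin2 held TGACCT at position -218 and Plin5 AGGTCA at position -170, while the Plin4 and Fitm1 stretches held neither. Windows were found for 9 of the 10 genes, as 13 windows of the 250 bases before a start, and these were the 2 windows with the core site among them. Of all 32851 RefSeq windows 14.0% held it. An exact copy of the Pparα element DR1, AGGTCA repeated after 1 base, was in 0 of the 13 windows. Only 0.0335% of all windows held one, so its absence from 13 windows says nothing about these genes. Inexact copies and sites farther from the start were not searched. The letters CACGTG, an E-box, were in 1 window of Mgll and in 6.02% of all windows, and ACGTG, which CACGTG contains, was in 16.6% of all windows and in windows of Mgll and Hilpda. A match here says only that the letters are in the window.

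The CIDE proteins fuse small droplets into larger ones. Cidec was at 31.2, 62.5, 28.6 and 60.3 CPM in control libraries and at 587, 681, 365 and 591 CPM in Cpt2 L-/- libraries. In DKO libraries it was at 403, 473, 532 and 557 CPM. It had the largest rise of the 9 genes tested in both genotypes, 12-fold in Cpt2 L-/- livers (log2 fold change 3.58, standard error 0.56, edgeR adjusted p = 0.000345) and 10.7-fold in DKO livers (edgeR adjusted p = 0.000377). In Tsc1 L-/- livers it ranged from 4.23 to 48.1 CPM, with 2 libraries within and 2 below the control range (edgeR adjusted p = 0.532).

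Cidea was barely detected. It had 0, 0, 0 and 3 counts in control libraries and 0 counts in all 4 Tsc1 L-/- libraries, where 3 counts would be 0.181 to 0.203 CPM. Cpt2 L-/- libraries had 6, 56, 4 and 5 counts and DKO libraries 31, 8, 2 and 10. Summed over a group, the count per read was 24.5 times that of control, whose 3 counts are in 1 library and at the floor, in Cpt2 L-/- livers (exact 95% interval 8.05 to 122, counting error only) and 18.2 times in DKO livers (5.89 to 91.2). In Ppara KO libraries there were 3, 0, 2 and 15 counts (7.11 times control, 2.11 to 37.4) and in Cpt2 Ppara KO libraries 4, 2, 2 and 0 (2.87 times, 0.690 to 16.8, or 1.84 times, 0.312 to 12.6, without replicate 1). In Cpt2 L-/- and DKO livers much of the sum came from 1 library in each group, and without Cpt2 L-/- replicate 2 and DKO replicate 1 the sums were 15 and 20 counts in 3 libraries, or 6.76 (1.91 to 36.4) and 9.39 times control (2.79 to 49.3). Without Ppara KO replicate 4 the Ppara KO sum was 5 counts, or 2.30 times control (0.447 to 14.8). A gene on the opposite strand, B430212C06Rik, overlaps the start of Cidea and had 0 to 19 counts per library. Cpt2 L-/- replicate 2 also held fat cell markers, with Adipoq at 2.60 CPM, Plin1 at 1.90 CPM and Cfd at 12.3 CPM, while DKO replicate 1 had 0 counts of Adipoq. All 7 fat cell markers had a count in at least 1 Cpt2 L-/- library. Their sum was 18.1 CPM in replicate 2 and 0.591 to 1.17 CPM in replicates 1, 3 and 4, which were below every control library. In the 4 control libraries Lep, Plin1, Retn and Ucp1 were at 0 and the sum was 3.85 to 8.78 CPM, of which Adrb3 made up 3.58 to 6.78 CPM. Tsc1 L-/- livers, with no Cidea count, had a sum of 5.26 to 19.1 CPM and Adrb3 at 5.02 to 19.0 CPM, so the sum follows Adrb3 there. Adrb3 itself was at 0.499 ± 0.316 CPM in Cpt2 L-/- livers, below every control library. Whether fat cell RNA has a part in the Cidea counts was not tested.

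Fitm1 belongs to the FIT proteins of the endoplasmic reticulum, which are needed to form droplets, and is mainly known from muscle. Its 4 control libraries were at 14.8, 14.4, 19.8 and 18.6 CPM. Cpt2 L-/- libraries, at 10.4, 17.7, 13 and 13.5 CPM, and DKO libraries, at 11.1, 13.7, 10.2 and 14.5 CPM, overlapped with them. The DKO difference from control was not called, but it was called as lower in a fit of these 2 groups alone (log2 fold change -0.48, edgeR adjusted p = 0.0287) and without Tsc1 L-/- replicate 3 (edgeR adjusted p = 0.0451). Tsc1 L-/- libraries were at 1.45, 1.42, 8.39 and 1.99 CPM, all below control. Fitm1 fell by 2.35 on the log2 scale in Tsc1 L-/- livers (standard error 0.44, edgeR adjusted p = 0.0051), and by 3.38 without Tsc1 L-/- replicate 3, the library at 8.39 CPM. In DKO livers it was 3.71-fold above Tsc1 L-/- livers (edgeR adjusted p = 0.00402; log2 fold change 1.89, or 2.92 without Tsc1 L-/- replicate 3), and against Cpt2 L-/- livers the log2 fold change was -0.12 (95% interval -0.98 to 0.74). The interaction of Tsc1 and Cpt2 loss was 2.23 (95% interval 0.97 to 3.49, edgeR adjusted p = 0.0631). This passed the threshold in DESeq2 (adjusted p = 0.00392) and in edgeR without Tsc1 L-/- replicate 3 (adjusted p = 5.69e-06). An antisense gene, Gm15932, overlaps Fitm1 and had 2 to 25 counts per library. Muscle markers summed to at most 0.380 CPM in the 16 libraries of these 4 genotypes and to 18.6 CPM in Cpt2 Ppara KO replicate 4, where Fitm1 was at 2.10 CPM.

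Pnpla2, the lipase itself, was at 176, 192, 127 and 137 CPM in control libraries and at 470, 437, 477 and 404 CPM in Cpt2 L-/- libraries. DKO libraries were at 316, 332, 333 and 566 CPM, and all 8 libraries of these 2 genotypes were above all control libraries. Pnpla2 rose 2.77-fold with loss of Cpt2 (edgeR adjusted p = 0.000194) and 2.43-fold in DKO livers (edgeR adjusted p = 0.000508).

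Its inhibitors are Hilpda and G0s2. Hilpda, which is induced by hypoxia and fatty acids, was low in control libraries, at 1.72 to 3.08 CPM. Cpt2 L-/- libraries held 12 to 20.0 CPM and DKO libraries 6.68 to 16.8 CPM, with no overlap with control. It rose 6.82-fold (edgeR adjusted p = 2.11e-06) and 4.78-fold (edgeR adjusted p = 8.74e-06). G0s2 was at 45.0, 121, 161 and 139 CPM in control libraries, at 103, 123, 74.4 and 36.5 CPM in Cpt2 L-/- libraries and at 108, 70.7, 68.7 and 105 CPM in DKO libraries. These values overlapped, and neither difference passed the test (log2 fold changes -0.49 and -0.41, edgeR adjusted p = 0.521 and 0.575). In Tsc1 L-/- livers G0s2 was at 64.5, 13, 32.8 and 77.5 CPM (log2 fold change -1.31, 95% interval -2.45 to -0.16, edgeR adjusted p = 0.174). The ratio of G0s2 to Pnpla2 by FPKM was 2.46 ± 1.37 in control livers, 0.897 ± 0.557 in Tsc1 L-/-, 0.582 ± 0.257 in Cpt2 L-/- and 0.738 ± 0.224 in DKO livers (SD, n = 4). Control replicate 1, at 0.797, lay within the Cpt2 L-/- range, and the exact two-sided permutation test gave p = 0.0571 for Cpt2 L-/- against control (0.152 adjusted over the 16 ratio comparisons).

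Mgll was at 243, 347, 300 and 314 CPM in control libraries and at 284, 445, 630 and 462 CPM in Cpt2 L-/- libraries, which overlapped. The rise of 1.48-fold was just past the threshold (edgeR adjusted p = 0.0482) and was lost when any of 10 of the 16 libraries was left out (edgeR adjusted p = 0.0523 to 0.157), among them control replicates 1, 3 and 4 and Cpt2 L-/- replicates 2, 3 and 4. It was also lost with RLE size factors (0.0517), without a filter (0.0581), with these 2 groups alone (0.0602), with all 24 libraries (0.188) and in the fit with the Ppara groups (0.267). DKO libraries, at 496, 492, 375 and 591 CPM, were all above control (1.61-fold, edgeR adjusted p = 0.0165, or 0.0557 without DKO replicate 4 and 0.104 with all 24 libraries). An antisense gene, Gm26588, overlaps the start of Mgll and had 4 to 127 counts, against 1124 to 11059 for Mgll.

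Taking the 9 tested genes as a group, 7 rose in Cpt2 L-/- livers, all but Fitm1 and G0s2, and their median log2 fold change was 1.82, against -0.02 over all 13641 genes tested. Of those genes 31.0% were called in this comparison, 16.2% of them as higher. For 6 of the 9, every Cpt2 L-/- library was above every control library, as for 17.1% of all genes. In DKO livers 7 of 9 rose as well (36.4% of all genes were called and 19.3% higher), with a median of 1.28 against 0.02. Each of the 7 was higher in every DKO library than in every control library, as were 21.2% of all genes. In DKO against Tsc1 L-/- livers 8 of 9 rose, all but G0s2 (32.2% of all genes called, 16.9% higher). Tsc1 L-/- livers had Fitm1 and Plin5 lower than control, 2 of 9, where 6.64% of all genes were called, 4.16% as higher and 2.48% as lower. None of the 9 was higher in every Tsc1 L-/- library than in every control library, as 6.97% of all genes were. A fit of Tsc1 L-/- and control libraries alone called neither (edgeR adjusted p = 0.0656 for Fitm1 and 0.0659 for Plin5). Against Cpt2 L-/- livers 1 of 9, Plin5, was lower in DKO livers, where 18.3% of all genes were called and 7.4% as lower. It was also the gene with every DKO library below every Cpt2 L-/- library, as for 10.1% of all genes. For the other 8 genes the 95% intervals of that difference all held 0, from -0.67 to 0.35 for Plin2, -0.68 to 0.30 for Pnpla2 and -1.05 to 0.02 for Hilpda, to -1.25 to 0.93 for Cidec and -1.04 to 1.2 for G0s2. The interaction of Tsc1 and Cpt2 loss was called in edgeR for 0 of 9 genes (2.38% of all genes, 1.09% positive), with an unadjusted p under 0.05 for 1, Fitm1, which was also the 1 gene called by DESeq2. These comparisons share control, Tsc1 L-/- or Cpt2 L-/- libraries.

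**Figure D3:**
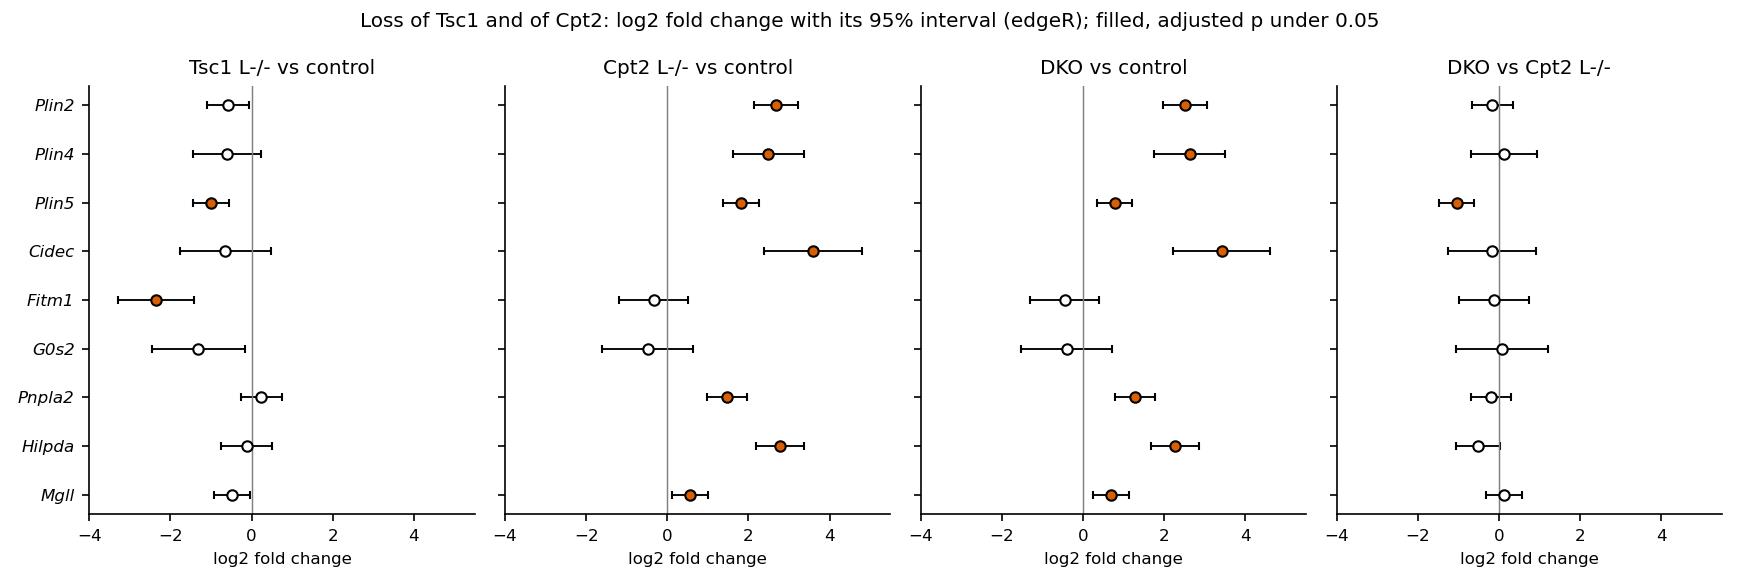
Log2 fold change (horizontal axis) of the 9 tested genes in 4 comparisons, with 95% intervals from edgeR; filled points have an adjusted p under 0.05. The panels of Cpt2 L-/- and of DKO against control each have 7 of 9 points filled, all to the right of 0, and Plin5 is the filled point in the panel of DKO against Cpt2 L-/-.

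**Figure D4:**
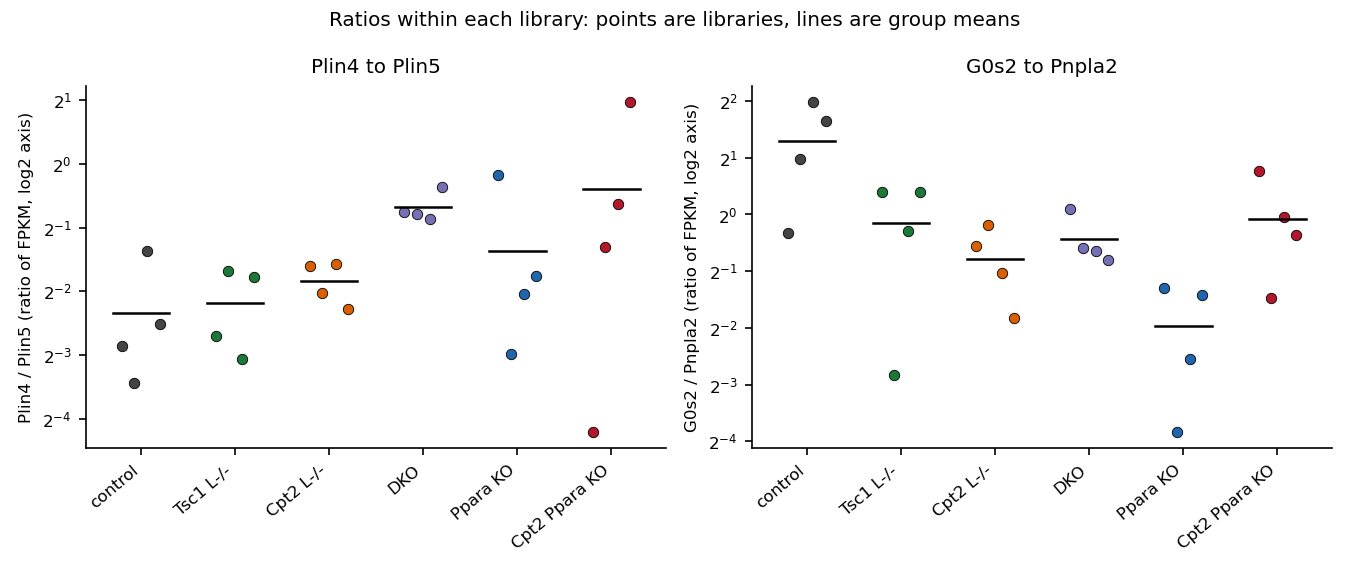
Ratio of FPKM within each library (vertical axis, log2 scale) of Plin4 to Plin5 (left) and of G0s2 to Pnpla2 (right); points are libraries and lines group means. The 4 DKO libraries lie between 0.552 and 0.779 on the left, above all Cpt2 L-/- libraries, and Ppara KO libraries lie between 0.0701 and 0.406 on the right, below all control libraries.

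In Ppara KO livers Fitm1, G0s2 and Mgll fell, Hilpda rose, and the other 5 tested genes did not pass the test. Fitm1 had 22, 1, 3 and 0 counts in the 4 Ppara KO libraries, or 0 to 1.01 CPM, against 213 to 385 counts in control libraries. It was 44.6-fold lower (log2 fold change -5.48, standard error 0.69, edgeR adjusted p = 3.8e-05), with a log2 fold change of -7.39 without Ppara KO replicate 1, the library with 22 counts. G0s2 was at 18.6, 9.19, 18.3 and 11 CPM, below every control library, as 14.7% of all genes were (8.15-fold lower, edgeR adjusted p = 0.000217). Mgll was at 100, 116, 107 and 91.8 CPM, also below every control library (2.91-fold lower, edgeR adjusted p = 0.00259). Both the inhibitor G0s2 and the last lipase of the pathway were thus low, while the lipase Pnpla2, at 143, 409, 336 and 92.0 CPM, scattered around control (log2 fold change 0.63, 95% interval -0.09 to 1.35, edgeR adjusted p = 0.175). Hilpda was at 5.57, 17.9, 27.5 and 2.54 CPM and its lowest library overlapped with control (5.46-fold higher, edgeR adjusted p = 0.00919). The rise was 1.84 on the log2 scale without Ppara KO replicate 3 (edgeR adjusted p = 0.0441), against 2.45 with it. The ratio of G0s2 to Pnpla2 was 0.255 ± 0.161, against 2.46 ± 1.37 in control livers, and the groups did not overlap (exact two-sided permutation test, p = 0.0286, or 0.114 adjusted).

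Plin2 and Plin5 in Ppara KO livers depended on the fit. Plin2 was at 1234, 500, 1064 and 689 CPM, with 1 library within the control range. Plin5 was at 19.3, 29.3, 77.3 and 18.1 CPM, and again 1 library overlapped with control. With all 16 libraries of this design the log2 fold changes were 0.81 (edgeR adjusted p = 0.0896) and -1.32 (edgeR adjusted p = 0.098). Without Cpt2 Ppara KO replicate 1, which adds to the shared estimate of spread, they were 0.81 (edgeR adjusted p = 0.0197) and -1.32 (edgeR adjusted p = 0.02). Plin5 was also called without Ppara KO replicate 3 (log2 fold change -2.0, edgeR adjusted p = 0.0253), and Pnpla2 without Ppara KO replicate 4 (0.91, edgeR adjusted p = 0.022). In Ppara KO livers 1 of 9 genes rose and 3 fell, where 29.0% of 13615 genes were called, 15.9% as higher and 13.2% as lower. Without Cpt2 Ppara KO replicate 1 the counts were 2 and 4, with 18.5% of all genes higher and 15.3% lower.

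Within livers that lack Cpt2, loss of Ppara came with lower Plin2, Pnpla2, Mgll and Fitm1. Plin2 was at 2781, 931, 760 and 1239 CPM in Cpt2 Ppara KO libraries, all below the Cpt2 L-/- libraries, as for 11.0% of all genes (2.26-fold lower, edgeR adjusted p = 0.0285). Without replicate 1, the library at 2781 CPM, the log2 fold change was -1.72 rather than -1.18 (edgeR adjusted p = 0.000657). Pnpla2 was at 137, 181, 214 and 149 CPM, which overlapped with control, and was 2.63-fold below Cpt2 L-/- livers (edgeR adjusted p = 0.0121, or 0.0336 without replicate 1). Mgll was at 268, 78.2, 95.1 and 81.6 CPM, 3.48-fold lower than in Cpt2 L-/- livers (edgeR adjusted p = 0.00221), with a log2 fold change of -2.42 rather than -1.80 without replicate 1. Fitm1 was at 9.70, 1.67, 2.09 and 2.10 CPM and was 3.55-fold lower (edgeR adjusted p = 0.0285), with -2.79 rather than -1.83 on the log2 scale without replicate 1. The Fitm1 call was lost on leaving out any of 6 other libraries (edgeR adjusted p = 0.0604 to 0.0857) and the Plin2 call on leaving out any of 4 (0.0603 to 0.0926), each of them Cpt2 L-/- or Cpt2 Ppara KO libraries. Without a filter Fitm1 was not called (0.0755), nor was Plin2 in a fit of the 2 groups alone (0.0595).

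In replicate 1 Plin5 was at 291 CPM and Cidec at 513 CPM, within the Cpt2 L-/- ranges, whereas the other 3 Cpt2 Ppara KO libraries were at 70.0, 44.9 and 34.4 CPM for Plin5 and at 123, 175 and 147 CPM for Cidec. Neither gene was called with all libraries (log2 fold changes -1.54 and -1.22, edgeR adjusted p = 0.075 and 0.0852). Both were called without replicate 1 (-2.68, edgeR adjusted p = 0.00147, and -1.90, edgeR adjusted p = 0.0112). In all, 4 of 9 genes were lower, where 18.4% of all genes were called and 8.01% as lower and 10.3% as higher, and 6 of 9 were lower without replicate 1, where 13.3% of all genes were called and 6.59% as lower. Every library was below every Cpt2 L-/- library for 5 of the 9, and for 7 of 9 without replicate 1 (13.9% of all genes then). Plin4, at 45.8, 82.3, 84.2 and 195 CPM, was below every Cpt2 L-/- library but did not pass the test (edgeR adjusted p = 0.0659). It passed without Cpt2 Ppara KO replicate 4 (edgeR adjusted p = 0.0144) and without Ppara KO replicate 2 (0.0393), in DESeq2 (0.0205) and with the 2 groups alone (0.0457), but without Cpt2 Ppara KO replicate 1 the log2 fold change was -1.09 (edgeR adjusted p = 0.186). With all 24 libraries Plin5 was called (0.0361), and in DESeq2 Cidec was (0.0385).

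Loss of Cpt2 was also compared in livers without Ppara. Against Ppara KO livers, Fitm1, G0s2, Cidec and Plin4 were higher in Cpt2 Ppara KO livers, 4 of 9, where 25.5% of all genes were called and 12.9% as higher. Of these Fitm1, G0s2 and Cidec were higher in every Cpt2 Ppara KO library than in every Ppara KO library, as were 9.44% of all genes, and none of the 9 was lower in every library, as 8.84% of all genes were. Leaving out Cpt2 Ppara KO replicate 1, Plin4 joined the 3 that did not overlap (10.6% of all genes). The log2 fold change of Fitm1 was 3.32 (edgeR adjusted p = 0.00587), 2.35 without Cpt2 Ppara KO replicate 1 (edgeR adjusted p = 0.017) and 5.20 without Ppara KO replicate 1. G0s2 rose 3.42-fold (edgeR adjusted p = 0.0124), Cidec 3.27-fold (edgeR adjusted p = 0.0197) and Plin4 3.11-fold (edgeR adjusted p = 0.0252). Without Cpt2 Ppara KO replicate 1 the edgeR adjusted p was 0.0532 for G0s2 (log2 fold change 1.51) and 0.118 for Cidec (1.02 in place of 1.71), so that Fitm1 and Plin4 were the genes still called, where 12.4% of all genes were called and 5.74% as higher. Plin4 in turn was not called without Cpt2 Ppara KO replicate 4 (edgeR adjusted p = 0.0914), Ppara KO replicate 2 (0.0573) or Ppara KO replicate 4 (0.0662), nor Cidec without Ppara KO replicate 2 (0.0558). In a fit of the 2 groups alone none of the 4 was called (0.0527 to 0.0908), where 0.868% of all genes were, and without a filter Plin4 and Cidec were not (0.0705 and 0.0547). Plin5 was called in turn without Cpt2 Ppara KO replicate 3 or 4 or Ppara KO replicate 3 (edgeR adjusted p = 0.0239 to 0.0345), in DESeq2 (0.0412) and with all 24 libraries (0.0283), but its log2 fold change of 1.59 was 0.45 without Cpt2 Ppara KO replicate 1 (edgeR adjusted p = 0.507), and Pnpla2 was called as lower without Ppara KO replicate 4 (log2 fold change -0.85, edgeR adjusted p = 0.0415).

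The test of that difference, the interaction of Cpt2 and Ppara loss, was past the threshold for 5 of 9 genes, 2 positive and 3 negative (24.0% of all genes were called, 12.0% in each direction). For Plin2, loss of Cpt2 gave a log2 fold change of 2.68 with Ppara and 0.69 without it, a difference of -1.99 (95% interval -3.03 to -0.94, edgeR adjusted p = 0.00936). Leaving out Cpt2 Ppara KO replicate 1, the change without Ppara was 0.15 and the difference -2.53 (edgeR adjusted p = 0.000376). For Pnpla2 the changes were 1.47 and -0.56 and the difference -2.02 (edgeR adjusted p = 0.00741), or -0.46 and -1.93 without that library (0.0145). Hilpda changed by 2.77 and 0.26, a difference of -2.51 (edgeR adjusted p = 0.0432), which was lost on leaving out any of 13 of the 16 libraries (edgeR adjusted p = 0.0527 to 0.111) or with no filter (0.117). Without Cpt2 Ppara KO replicate 1 it was -3.28 (edgeR adjusted p = 0.00976), and Hilpda was then at -0.51 in livers without Ppara. Without Ppara KO replicate 3 it was -1.89. Fitm1 and G0s2 went the other way. Fitm1 changed by -0.34 with Ppara and by 3.32 without it, a difference of 3.65 (95% interval 1.84 to 5.47, edgeR adjusted p = 0.00713), and this was 2.68 without Cpt2 Ppara KO replicate 1 and 5.55 without Ppara KO replicate 1. The Fitm1 change without Ppara is measured from Ppara KO libraries with 22, 1, 3 and 0 counts, mostly at or below 3 counts, so its size is uncertain. G0s2 changed by -0.49 and 1.77, a difference of 2.26 (edgeR adjusted p = 0.0157, or 0.041 without Cpt2 Ppara KO replicate 1). Without that replicate 7 of 9 genes were called, against 22.3% of all genes (10.64% positive, 11.64% negative), with Cidec at -2.56 (edgeR adjusted p = 0.00768) and Mgll at -0.88 (edgeR adjusted p = 0.0396) in addition. Cidec was also called without Ppara KO replicate 2 (edgeR adjusted p = 0.0391) or replicate 4 (0.0243) and in DESeq2 (0.0187). For Plin4 the interaction was -0.85 (95% interval -2.29 to 0.58, and -0.61 without Cpt2 Ppara KO replicate 1), and the interval does not separate the response to loss of Cpt2 with and without Ppara.

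**Figure D5:**
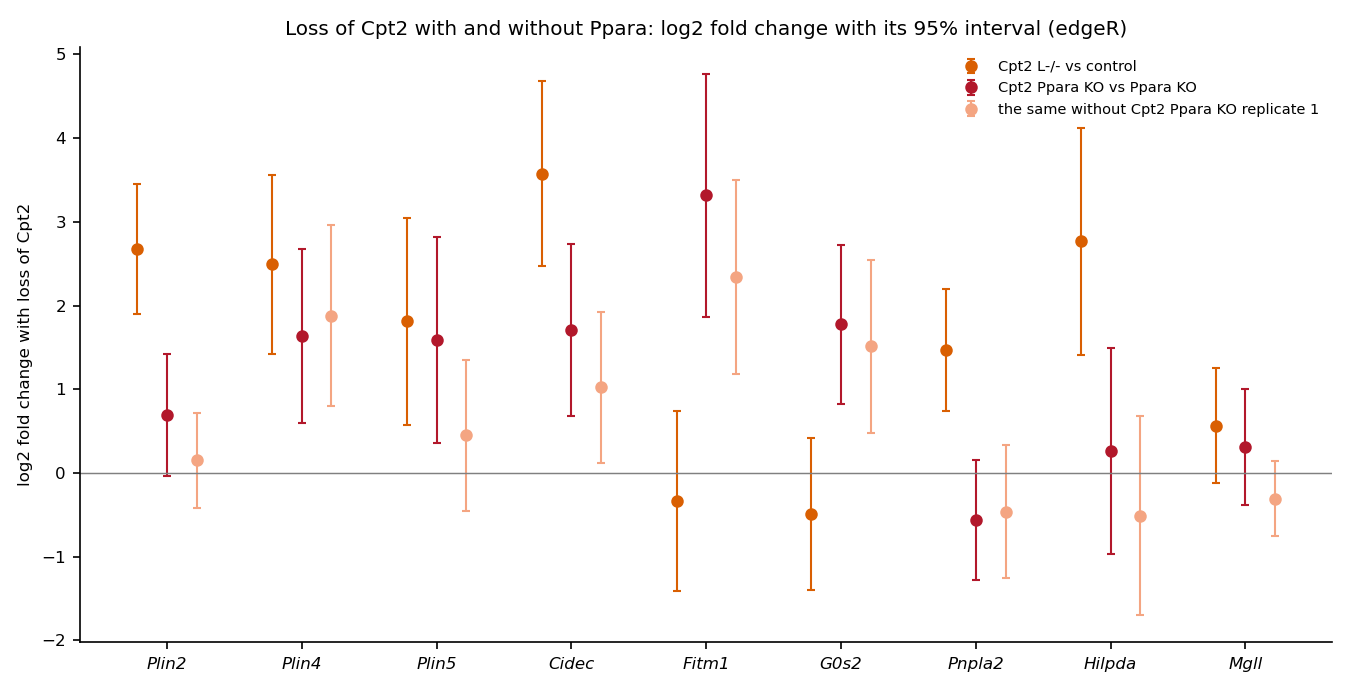
Log2 fold change with loss of Cpt2 (vertical axis) for the 9 tested genes, with 95% intervals from edgeR, in livers with Ppara (orange) and without it (red), and without it leaving out Cpt2 Ppara KO replicate 1 (pale red). Plin2 goes from 2.68 to 0.69 and Fitm1 from -0.34 to 3.32.

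The order of the levels differed by gene. Cpt2 L-/- livers had the highest mean CPM for Plin2, Plin5, Cidea, Cidec, Pnpla2 and Hilpda and DKO livers for Plin4 and Mgll. For Cidea this rests on Cpt2 L-/- replicate 2, at 3.55 CPM. Replicates 1, 3 and 4 were at 0.236 to 0.320 CPM, below the DKO mean of 0.714 CPM. Control livers had the highest mean for Fitm1 and G0s2. Most neighbours in these orders overlapped. The exceptions were Cpt2 L-/- above DKO and control above Tsc1 L-/- for Plin5, Cpt2 L-/- above Cpt2 Ppara KO for Plin4, Cpt2 Ppara KO above Ppara KO for Cidec, DKO above Cpt2 Ppara KO and Tsc1 L-/- above Ppara KO for Fitm1, and DKO above control for Hilpda. Without Cpt2 Ppara KO replicate 1 the highest group was the same for each of the 10 genes, while the Cpt2 Ppara KO mean moved below that of control for Plin5, of Tsc1 L-/- for Fitm1 and G0s2, of Ppara KO for Mgll, and of Ppara KO and DKO for Hilpda. Neighbours that then no longer overlapped included DKO above Cpt2 Ppara KO for Plin2 and Cidec. For Fitm1 and G0s2 Cpt2 Ppara KO and Ppara KO became neighbours, and these groups did not overlap with all libraries either.

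Other genes of the droplet surface, of lipolysis, of triglyceride synthesis and of their regulation were counted from 4 lists of 40 genes, of which 37 were tested. In Tsc1 L-/- livers 2 rose and 4 fell, in Cpt2 L-/- livers 17 rose and 1 fell, and in DKO livers 16 rose and 7 fell. Over all genes tested, 4.16% rose and 2.48% fell in the first, 16.2% and 14.9% in the second and 19.3% and 17.1% in the third of these comparisons. Plin3, the perilipin outside the 10 genes that is found in most cells, rose in Tsc1 L-/- livers (from 45.9 ± 9.75 to 99.1 ± 5.88 CPM, log2 fold change 1.11, edgeR adjusted p = 4.62e-05), where Plin5 fell. Against control it also rose in Cpt2 L-/- (154 ± 12.7 CPM, log2 fold change 1.72) and DKO livers (192 ± 19.6 CPM, 2.06). The interaction of Tsc1 and Cpt2 loss for Plin3 was -0.77 (edgeR adjusted p = 0.0289, where 2.38% of all genes were called), so the rise in DKO livers was less than the single rises would add up to. Abhd5, the co-activator of the Pnpla2 lipase, was higher in DKO than in Cpt2 L-/- livers, at 49.9 ± 6.65 against 30.9 ± 3.52 CPM (log2 fold change 0.71, edgeR adjusted p = 0.000996). In that comparison 1 of the 37 genes rose and 3 fell, against 10.9% and 7.4% of all genes, among them Agpat6 (-0.91) and Dgat1 (-0.60, edgeR adjusted p = 0.00345), which makes triglyceride from diacylglycerol. Of the 9 tested genes of lipolysis, 4 rose and 4 fell in DKO against control livers, with the carboxylesterases Ces1g (-1.45) and Ces1d (-1.13) as the largest falls.

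Of the 14 genes of synthesis, 7 rose in Cpt2 L-/- livers, where 16.2% of all genes did, and 7 rose and 2 fell in DKO livers, where 19.3% and 17.1% did. Mogat2, which makes diacylglycerol from monoacylglycerol, had 1 to 5 counts per control library, or 0.133 ± 0.113 CPM, and with loss of Cpt2 was at 2.60 ± 0.938 CPM (edgeR adjusted p = 6.64e-05). Its relative Mogat1 was low in Tsc1 L-/- livers (0.286 ± 0.126 CPM against 1.59 ± 0.699 in control, edgeR adjusted p = 0.00565) and at 2.69 ± 1.19 CPM in DKO livers (interaction 3.63, edgeR adjusted p = 0.0065). The Tsc1 L-/- level of Mogat1 is near the floor, since 3 counts there would be 0.181 to 0.203 CPM. Both its fall and its interaction rest on that group. In Ppara KO livers 3 of the 37 genes rose and 11 fell, against 15.9% and 13.2% of all genes, with Lpin3, a phosphatidate phosphatase, at 24.7 ± 3.28 CPM against 6.91 ± 1.15 in control (1.83, edgeR adjusted p = 6.36e-06), and Hsd17b11, a droplet dehydrogenase, at 70.0 ± 14.0 against 502 ± 101 CPM (-2.85, edgeR adjusted p = 1.89e-05). In Cpt2 Ppara KO against Cpt2 L-/- livers 2 rose and 15 fell, where 10.3% of all genes rose and 8.01% fell, and against Ppara KO livers 8 rose and 3 fell, where 12.9% and 12.6% did. Without Cpt2 Ppara KO replicate 1, with 38 genes of the lists tested, 0 rose and 13 fell against Cpt2 L-/- livers (6.74% and 6.59% of all genes), 2 rose and 2 fell against Ppara KO livers (5.74% and 6.69%), and 5 rose and 13 fell in Ppara KO livers (18.5% and 15.3%).

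Ppara transcripts themselves did not pass the test in Tsc1 L-/- (log2 fold change -0.40, edgeR adjusted p = 0.205), Cpt2 L-/- (0.29, 0.223) or DKO livers (-0.09, 0.725). Pparg, the relative of Ppara that drives droplet genes in fat cells, was at 14.9 ± 4.88 CPM in control livers and at 8.02 ± 1.96 CPM in Tsc1 L-/- livers (log2 difference -0.89, edgeR adjusted p = 0.0175). It was at 23.1 ± 3.06 CPM in Cpt2 L-/- livers (0.60, edgeR adjusted p = 0.0336), 24.2 ± 2.92 CPM in DKO livers (0.69, 0.0147), 14.2 ± 3.83 CPM in Ppara KO livers and 38.2 ± 5.88 CPM in Cpt2 Ppara KO livers, the highest of the 6 groups (1.40 against Ppara KO, edgeR adjusted p = 0.00226). Without replicate 1 it was at 35.3 ± 0.918 CPM there (SD, n = 3), still the highest mean, and the difference from Ppara KO was 1.29 (edgeR adjusted p = 0.00628).

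Across the 24 libraries, which share their genotypes, the level of Plin2 on a log2 scale went most closely with that of Cidec among the 36 pairs of the genes with a mean of at least 1 CPM (Pearson r = 0.917), and Plin4 with Cidec followed (0.848). Fitm1 went with G0s2 (0.83) and Mgll (0.791) and hardly with Hilpda (0.034). Of 12260 genes with a mean of at least 1 CPM, those most like Plin2 were Dhx32 (0.949), Tmem65 (0.947) and Acot2 (0.938), and those most like Cidec were Fam131c (0.951), Tubb2a (0.936) and Plin2. Mgll was closest to Hsd17b11 (0.956), Acsl5 (0.955) and Hadha (0.952), Fitm1 to Dhrs4 (0.941), Acat1 (0.927) and Rdh16 (0.924), and Plin5 to Gm15441 (0.910), Acot12 (0.905) and Abhd6 (0.902). For Plin4 the nearest was Mapre3 (0.872), for G0s2 Gm2788 (0.875), for Pnpla2 Gsk3a (0.892) and for Hilpda Sbds (0.926). These are descriptions of 24 libraries in 6 genotypes, with no test.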

How the data were processed

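Liver RNA of 24 libraries was sequenced by the authors as single 75-base reads from stranded mRNA libraries. The authors deposited read counts per gene, not normalized, and FPKM values made from the same counts, which recomputed values matched within a relative 9.11e-07. Coordinates are GRCm38, while the submitters' processing notes list mm8 and mm9, and the tools Bowtie 0.12.2, TopHat, STAR 2.5, STAR-Fusion, HTSeq 0.6.1, DESeq2 and edgeR without their order or the strand setting.

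The counts were then fitted with edgeR 4.0.16 under R 4.3.3: filterByExpr (minimum count 10, minimum total count 15), TMM, robust quasi-likelihood fits and Benjamini-Hochberg adjustment with a threshold of 0.05. The first fit held control, Tsc1 L-/-, Cpt2 L-/- and DKO libraries (13641 genes), and the second control, Cpt2 L-/-, Ppara KO and Cpt2 Ppara KO libraries (13615 genes). CPM are from TMM factors over 24 libraries, and log2 CPM for correlations used a prior count of 2. Ratios were tested by exact permutation in scipy 1.17.1. Figures were drawn with matplotlib 3.10.9. At 14470968 to 20371204 counts per library, 3 counts or fewer were taken as the floor, and intervals on counts cover counting error only.

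The genes, the lists and the tests were chosen with earlier results of these data known. All 10 genes are named. Of the 4 lists, the text names for a comparison up to 2 genes with the largest rise and 2 with the largest fall among those called, without overlap and averaging 1 CPM or more, and always Ppara and Pparg. The scripts were tested on simulated counts. Alternatives were RLE size factors, no filter, DESeq2 1.42.0, all 24 libraries in 1 fit, 2 groups alone, a replicate block and each library left out.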

Additional observations from a re-analysis of the deposited data

Results flagged for a closer look

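Both ends of each set of 4 libraries were tested with Dixon's 95% critical value, which normal values pass at either end in about 1 of 20 sets. CPM values need not be normal, so that rate is a rough guide. Leaving out Cidea, in 6 of 54 sets the highest library lay farther from the others than this limit allows. Of these, 4 were in Cpt2 Ppara KO replicate 1, with Plin5 at 291 CPM against at most 70.0 CPM in the other 3 libraries, Cidec at 513 against 175 CPM, Fitm1 at 9.70 against 2.10 CPM and Mgll at 268 against 95.1 CPM. Ppara and Cyp4a14 were high in the same library. Cidea, where sets with several libraries at or near 0 counts give such a distance readily and were not counted, had a high library at 0.173 CPM in control (replicate 4, 3 counts), 3.55 CPM in Cpt2 L-/- (replicate 2, with fat cell markers) and 1.03 CPM in Ppara KO livers (replicate 4). Fitm1 was at 8.39 CPM in Tsc1 L-/- replicate 3 against at most 1.99 CPM, and Pnpla2 at 566 CPM in DKO replicate 4 against 333 CPM.

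The effect of losing Cpt2 differed between livers with and without Ppara for 5 of 9 genes, by the interaction term of edgeR, where 24.0% of all genes were called. The differences in log2 fold change were 3.65 for Fitm1 (adjusted p = 0.00713), 2.26 for G0s2 (0.0157), -2.51 for Hilpda (0.0432), -1.99 for Plin2 (0.00936) and -2.02 for Pnpla2 (0.00741). The Fitm1 value rests on Ppara KO libraries with 22, 1, 3 and 0 counts. The Hilpda call was lost in 13 of 16 fits with 1 library left out, with the replicate block and without a filter.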

How the results depend on the processing

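Directions of the 90 log2 fold changes, 9 genes in 10 comparisons, were the same with RLE size factors, without a filter, in DESeq2, with all 24 libraries, with 2 groups alone (72 values, without the interactions) and with a replicate block. Counts of called genes changed by over 1.5 times in these settings: Tsc1 L-/- against control had 0 with 2 groups alone (3.58% of all genes called) and 1 with all 24 libraries (2.86%) in place of 2 (6.64%), DKO against Cpt2 L-/- 0 with all 24 libraries (7.61%) in place of 1 (18.3%), the interaction of Tsc1 and Cpt2 loss 1 in DESeq2 (5.52%) in place of 0 (2.38%), and Cpt2 Ppara KO against Ppara KO 0 with 2 groups alone (0.868%) and 2 without a filter (11.7%) in place of 4 (25.5%); the cause was not tested. With each library left out in turn, the counts were 2 to 2 for Tsc1 L-/-, 6 to 7 for Cpt2 L-/- and 6 to 8 for DKO against control (the eighth being Fitm1, lower), 1 to 1 for DKO against Cpt2 L-/-, 8 to 8 for DKO against Tsc1 L-/-, 0 to 1 for the interaction of Tsc1 and Cpt2, 4 to 6 for Ppara KO, 2 to 6 for Cpt2 Ppara KO against Cpt2 L-/-, 2 to 5 against Ppara KO and 4 to 7 for the interaction of Cpt2 and Ppara. Call or non-call changed for 20 of the 90 values in at least 1 such fit. The sign reversed in 25 of 1440 such values, all of genes not called: Pnpla2 (-0.043 to 0.40) and Hilpda (-0.29 to 0.023) in Tsc1 L-/-; Mgll (-0.045 to 0.30), Fitm1 (-0.22 to 0.030), G0s2 (-0.17 to 0.32) and Plin4 (-0.0098 to 0.26) in DKO against Cpt2 L-/-; Plin5 in the interactions (-0.23 to 0.15 and -1.36 to 0.46); Hilpda in Cpt2 Ppara KO against Cpt2 L-/- (-0.83 to 0.20); and Hilpda (-0.51 to 0.88) and Mgll (-0.31 to 0.49) against Ppara KO.

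Replicate numbers were not used to pair the samples. Same-numbered libraries deviated together with r of -0.26 to 0.17 in the first and -0.10 to 0.22 in the second fit (median -0.0058 and 0.062), over 0.1 in 4 of 24 pairs in each. Libraries of different numbers had r of -0.20 to 0.23 and -0.27 to 0.29 (median -0.011 and -0.020), over 0.1 in 13 and 12 of 72 pairs. Ranges that overlap in this way cannot exclude a pairing. With the replicate block, Mgll in Cpt2 L-/- (edgeR adjusted p = 0.0705) and Hilpda in the interaction of Cpt2 and Ppara (0.0632) were not called, and Plin5 in Cpt2 Ppara KO against Cpt2 L-/- was (0.0475); the other 87 calls were the same. Genes at a few counts, such as Cidea and Fitm1 in Ppara KO livers, are limited by depth.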

Other observations

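The 4 Ppara KO libraries were not alike. Replicates 2 and 3 held Ppara at 13 and 13.1 CPM and replicates 1 and 4 at 45.2 and 38.1 CPM. Hilpda was at 17.9 and 27.5 CPM in the first pair and at 5.57 and 2.54 CPM in the second, and Pnpla2 at 409 and 336 CPM against 143 and 92.0 CPM. Plin2 did not divide the libraries in this way, with 500 and 1064 CPM against 1234 and 689 CPM. These pairs were seen in the data, are not groups of the study and were not tested.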
